A study of Mus musculus with 10 samples.

Results

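The 34 genes described here are immediate early genes, transcribed within minutes of a stimulus, and a few genes that neuronal activity induces somewhat later. They were taken by symbol from the 20156 gene rows of a count table of hippocampal RNA, and all 34 were in the table and among the 16180 genes that passed the filter on low counts. Hippocampus of 5 wild type (WT) mice and 5 mice of the genotype labelled TfamAKO was sequenced at 6 months of age, with 1 library per mouse. Tfam encodes the protein that packages mitochondrial DNA and drives its transcription. The series title places the study in the mitochondria of astrocytes. The labels do not name the promoter that drove the deletion, the exons removed, or the sex, litter or housing of the mice. They also do not say when the mice were killed or how they were handled before, which matters for genes that respond within minutes.

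Immediate early genes need no new protein synthesis for their induction. In neurons, calcium entry at active synapses reaches the factors CREB, SRF and MEF2 at their promoters, and the products are transcription factors (Fos, Jun, Egr, Nr4a and Npas4), synaptic effectors (Arc, Nptx2, Bdnf) and feedback inhibitors (Dusp, Sik1, Trib1). Many of the same genes answer growth factors, cytokines and cell stress in glia and vessel cells. Arc, Npas4, Nr4a2 and Egr3 are regarded here as neuron-restricted, and Fos, Junb, the Klf genes and the Gadd45 genes as generally stress-inducible. In whole tissue, fewer cells of a type and less RNA per cell cannot be told apart.

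Levels are given as CPM, the count of a gene scaled to a common library total after TMM normalization, and total counts ran from 16584245 to 28675367 per library. Tfam was at 31.7, 33.05, 20.6, 32.5 and 30.4 CPM across WT 1 to 5 and 23.6, 22.7, 19.6, 23.1 and 23.4 CPM across TfamAKO 1 to 5, and WT 3 lay within the TfamAKO range (log2 fold change -0.40 ± 0.12, SE, edgeR adjusted p = 0.0204). Leaving out TfamAKO 3 (-0.35, edgeR adjusted p = 0.0554), WT 2 (-0.34, 0.0580) or WT 4 (-0.37, 0.0504) left an adjusted p above 0.05, so the difference no longer passed. Several libraries stood apart. TfamAKO 4 and 5 held transcripts of the Y-linked gene Kdm5d (22.7 and 22.4 CPM, under 1 CPM elsewhere) and almost no Xist, so sex was unbalanced between the genotypes. WT 3, 4 and 5 held choroid plexus transcripts, with Ttr at 2511 to 5146 CPM against 14.3 to 122 CPM in the other 7 libraries. TfamAKO 5 held more of 4 genes of neocortical neurons, which hippocampus also expresses and which were chosen after their values were seen (Cux2, Lamp5, Tbr1 and Mef2c). Their summed level was 578 CPM in TfamAKO 5, 132 to 181 CPM in the other TfamAKO libraries and 247 to 310.1 CPM in WT.

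Immediate early genes moved in both directions. Of the 34 genes, 7 rose in TfamAKO (Trib1, Fos, Klf4, Ier2, Gadd45b, Ier5 and Nptx2), 5 fell (Arc, Npas4, Nr4a2, Egr4 and Vgf) and 22 did not pass the test (edgeR, adjusted p threshold of 0.05). That is 35.3% of the list, beside 37.4% of all genes tested. By direction, 20.6% of the list rose beside 20.8% of all genes, and 14.7% fell beside 16.6%, so with all libraries the shares were close to the background in both directions. The median log2 fold change of the list was 0.17, and that of all genes tested was -0.02. The ranges of the groups did not overlap for 4 genes (Trib1, Ier5, Arc and Nr4a2), or 11.8% of the list, beside 23.9% of all genes. Of the 22 genes that did not pass, 10 had a 95% interval within 1.5-fold either way. The numbers of genes depended on which libraries were used. Leaving out any 1 library other than TfamAKO 1 gave 6 to 9 genes of the list that rose and 4 to 6 that fell. Without TfamAKO 1, 13 genes of the list rose (38.2%, beside 23% of all genes tested) and 5 fell (14.7%, beside 20%), so the share that rose was then above the background. Without WT 3, 4 and 5, only WT 1 and 2 stood against the TfamAKO libraries, and fewer genes passed in the whole table too. Whether a change did not pass there for want of libraries or because of the choroid plexus transcripts cannot be told apart. Of the list 2 rose (Trib1, Ier5; 5.88%, beside 12% of all genes) and 2 fell (Nr4a2, Npas4; 5.88%, beside 4.48%). Without TfamAKO 4 and 5, 4 rose (Fos, Trib1, Ier5 and Jun; 11.8%, beside 17.5%) and 4 fell (Arc, Nr4a2, Egr4 and Egr1; 11.8%, beside 12.7%).

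**Figure D1:**
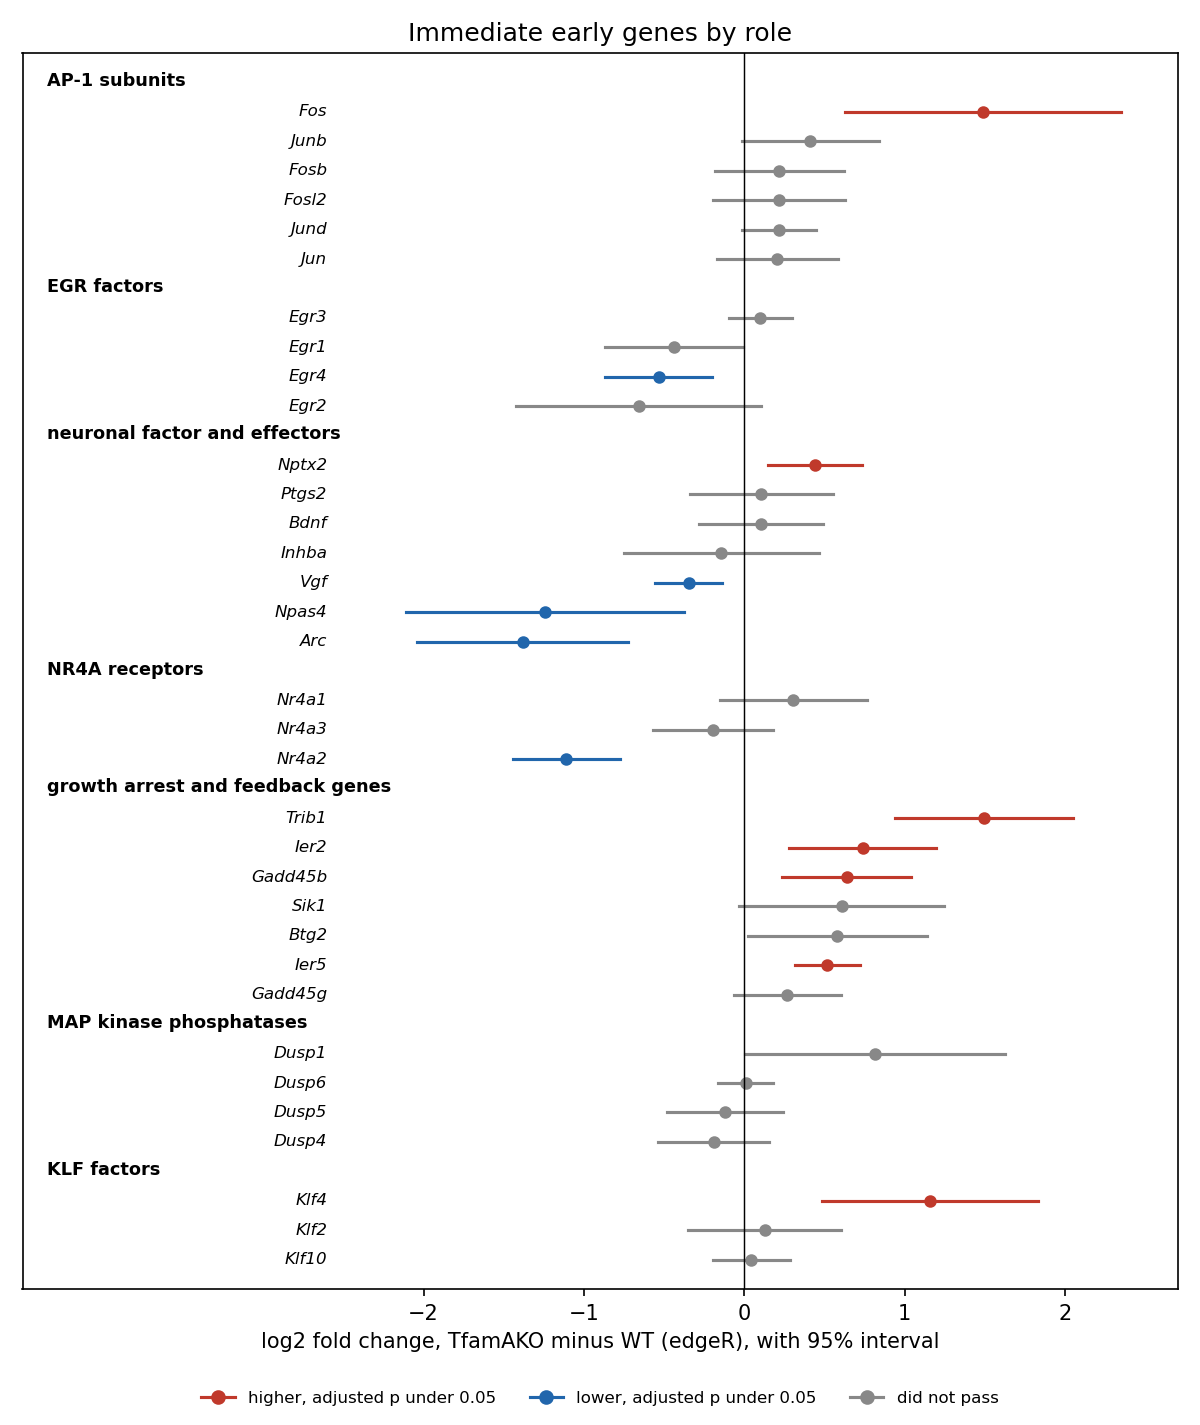
Log2 fold change of each of the 34 genes, TfamAKO minus WT, with the 95% interval of the edgeR fit (x axis), grouped by role (y axis). Red points passed the test upward, blue points downward, and grey points did not pass. The group of growth arrest and feedback genes, which leaves out the MAP kinase phosphatases, lay to the right of 0. To the left lay 3 of 4 EGR factors and 4 of 7 neuronal genes.

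Among the neuron-restricted genes 3 of 4 fell, beside 16.6% of all genes tested, and Egr3 did not pass the test. The median log2 fold change of the 4 was -1.18, beside -0.02 for all genes. Arc, whose protein controls the removal of AMPA receptors from synapses, was at 66.9, 128, 77.0, 134 and 135 CPM in WT 1 to 5. In TfamAKO 1 to 5 it was at 57.1, 19.9, 29.1, 38.5 and 62.9 CPM. Every TfamAKO library was below every WT library, and both groups were spread, with WT 1 and 3 low among WT and TfamAKO 1 and 5 high among TfamAKO. Arc fell 2.61-fold (log2 fold change -1.38 ± 0.30, SE, edgeR adjusted p = 0.00405). The fall was of similar size without TfamAKO 4 and 5 (-1.62, edgeR adjusted p = 0.00791). It did not pass without WT 3, 4 and 5, with WT 1 and 2 as the only WT libraries (-1.21, edgeR adjusted p = 0.0747).

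Nr4a2, an orphan nuclear receptor also known as Nurr1, showed the tightest separation of the list. It was at 62.3, 65.9, 67.8, 62.7 and 71.5 CPM across WT 1 to 5 and 32.8, 38.0, 31.6, 32.9 and 18.1 CPM across TfamAKO 1 to 5. The highest TfamAKO library lay well below the lowest WT library, and TfamAKO 5 was lowest. Nr4a2 fell 2.16-fold (log2 fold change -1.11 ± 0.15, edgeR adjusted p = 0.000206). It passed under all 22 alternatives, with log2 fold changes from -1.30 to -0.95.

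Npas4, a transcription factor induced by calcium entry in neurons, was at 6.64, 19.9, 2.96, 11.04 and 7.52 CPM in WT 1 to 5. It was at 3.70, 3.25, 3.60, 5.98 and 3.77 CPM in TfamAKO 1 to 5. WT 3 was the lowest of all 10 libraries and WT 2 the highest, so the groups overlapped and WT was spread 6.72-fold. The fitted fall was 2.37-fold (log2 fold change -1.24 ± 0.40, edgeR adjusted p = 0.0278). It did not pass without WT 2 (-0.78, edgeR adjusted p = 0.0788), WT 4 (-1.19, 0.0559), TfamAKO 2 (-1.17, 0.0662), TfamAKO 3 (-1.20, 0.0627) or TfamAKO 4 and 5 (-1.46, 0.0505), nor with limma-voom (-1.05, adjusted p = 0.0808).

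Egr3, a zinc finger factor of the EGR family, was the neuron-restricted gene that did not pass. Its levels were 89.0, 82.7, 106, 101 and 92.5 CPM in WT 1 to 5 and 88.3, 95.04, 94.2, 109 and 118 CPM in TfamAKO 1 to 5. The groups overlapped over most of their range. The log2 fold change was 0.10 ± 0.09 with a 95% interval of -0.10 to 0.30 (edgeR adjusted p = 0.413), and without TfamAKO 4 and 5 it was -0.02.

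**Figure D2:**
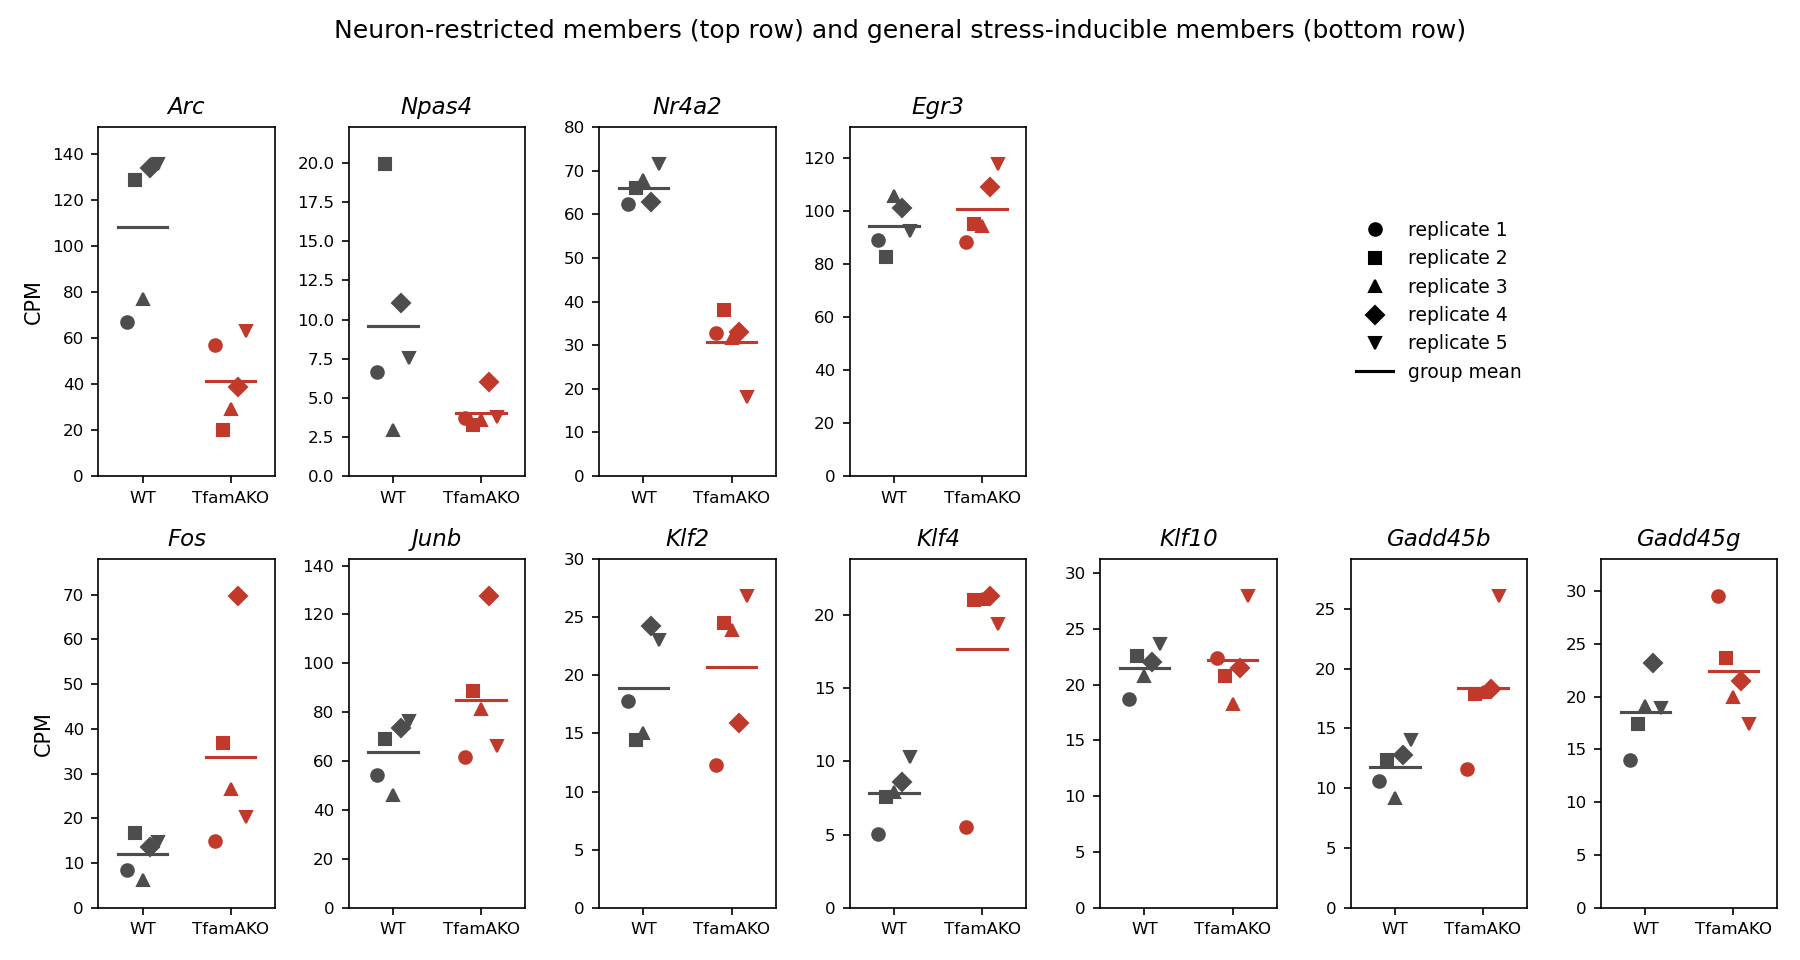
CPM (y axes, from 0) of the neuron-restricted genes (top) and the general stress-inducible genes (bottom) in the 5 WT and 5 TfamAKO libraries (x axes). Symbols give the label number, which was not treated as a pairing of mice, and bars the group mean. The groups of Arc and Nr4a2 did not overlap, Egr3 levels overlapped, and TfamAKO 1 lay within the WT range for Fos, Klf4 and Gadd45b.

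The general stress-inducible genes went the other way. Of these 7 genes, 3 rose, beside 20.8% of all genes tested, and the other 4 had positive values that did not pass. The median log2 fold change of the 7 was 0.41, beside -0.02 for all genes. Fos, the AP-1 subunit most used as a marker of activity, was at 8.42, 16.8, 6.13, 13.7 and 14.7 CPM in WT 1 to 5. It was at 15.0, 36.9, 26.5, 69.7 and 20.3 CPM in TfamAKO 1 to 5. TfamAKO 1 lay within the WT range, and the other 4 TfamAKO libraries lay above every WT library, with TfamAKO 4 far above the rest. Fos rose 2.80-fold (log2 fold change 1.49 ± 0.39, edgeR adjusted p = 0.0116). Without TfamAKO 4 the log2 fold change was 1.04 (edgeR adjusted p = 0.0266). Without WT 3, 4 and 5 the rise did not pass (1.42, edgeR adjusted p = 0.127).

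Klf4, a Krüppel-like factor active in endothelium and glia, was at 5.04, 7.55, 7.90, 8.59 and 10.3 CPM across WT 1 to 5 and 5.54, 21.0, 21.1, 21.3 and 19.4 CPM across TfamAKO 1 to 5. TfamAKO 2 to 5 formed a tight group above all WT libraries, and TfamAKO 1 was at the WT level. Klf4 rose 2.23-fold (log2 fold change 1.16 ± 0.31, edgeR adjusted p = 0.0119). The rise did not pass without TfamAKO 4 and 5 (1.01, edgeR adjusted p = 0.0637) or without WT 3, 4 and 5 (1.501, edgeR adjusted p = 0.0647). Of 5 markers of endothelial cells, 3 rose in TfamAKO, beside 20.8% of all genes tested, and Flt1 and Kdr did not pass. The summed level of the 5 markers was 153 to 202 CPM in WT and 232 to 393 CPM in TfamAKO. The part of endothelial cells in the level of Klf4 was not tested.

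Gadd45b, a stress sensor linked to DNA demethylation in active neurons, had the same arrangement of libraries. It was at 10.6, 12.4, 9.20, 12.8 and 14.0 CPM across WT 1 to 5 and 11.6, 17.9, 18.0, 18.3 and 26.1 CPM across TfamAKO 1 to 5. TfamAKO 1 was again within the WT range and the other 4 above it. Gadd45b rose 1.56-fold (log2 fold change 0.64 ± 0.18, edgeR adjusted p = 0.0177), and this did not pass without TfamAKO 4 and 5 (0.42, edgeR adjusted p = 0.0952) or without WT 3, 4 and 5 (0.70, edgeR adjusted p = 0.113).

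The other 4 general genes did not pass the test. Junb, an AP-1 subunit, was at 54.4, 69.2, 46.1, 73.6 and 76.4 CPM across WT 1 to 5 and 61.6, 88.7, 81.5, 128 and 66.2 CPM across TfamAKO 1 to 5 (log2 fold change 0.41 ± 0.20, edgeR adjusted p = 0.117). Junb overlapped between the groups, and TfamAKO 4 was its highest library. Gadd45g, a paralog of Gadd45b, was at 13.96, 17.4, 19.1, 23.2 and 18.96 CPM across WT 1 to 5 and 29.5, 23.6, 19.9, 21.5 and 17.4 CPM across TfamAKO 1 to 5. Its log2 fold change was 0.27 ± 0.15. Here TfamAKO 1 was the highest library, unlike for Gadd45b. Klf2, a flow-responsive factor of endothelium, was at 17.8, 14.4, 15.0, 24.3 and 23.0 CPM across WT 1 to 5 and 12.3, 24.5, 23.9, 15.9 and 26.8 CPM across TfamAKO 1 to 5. Klf10, induced by TGF-beta, was at 18.7, 22.6, 20.7, 22.03 and 23.6 CPM across WT 1 to 5 and 22.4, 20.8, 18.2, 21.5 and 27.9 CPM across TfamAKO 1 to 5. The groups overlapped for both. The 95% intervals were -0.35 to 0.60 for Klf2 and -0.20 to 0.28 for Klf10 on the log2 scale, so neither a small rise nor a small fall could be told from none.

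The sequences just upstream of 2 general genes that rose and 2 neuron-restricted genes that fell are shown because these genes moved in opposite directions. RefSeq promoter entries of build GRCm38.p6 were matched for 24 of the 34 genes. No motif was searched for in the other 10 (Arc, Vgf, Dusp4, Trib1, Ier2, Klf10, Nptx2, Egr1, Sik1 and Egr3). Each line gives the 250 bases before the annotated start, 5′ to 3′ on the gene's strand, from chr12:85473640-85473889 (plus strand, Fos), chr4:55532476-55532725 (minus, Klf4), chr19:4989972-4990221 (minus, Npas4) and chr2:57124004-57124253 (minus, Nr4a2). Capitals mark matches to the short CRE (TGACG, the core of the site bound by CREB, both strands, also counted inside a full CRE), to the EGR motif (GCGGGGGCG or GCGTGGGCG, both strands) and to the TATA motif (TATAAA, gene's strand).
Fos: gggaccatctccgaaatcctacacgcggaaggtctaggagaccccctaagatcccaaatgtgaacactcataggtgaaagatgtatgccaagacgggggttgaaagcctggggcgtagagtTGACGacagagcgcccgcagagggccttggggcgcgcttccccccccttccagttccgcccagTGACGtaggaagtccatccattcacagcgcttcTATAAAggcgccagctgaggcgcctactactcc
Klf4: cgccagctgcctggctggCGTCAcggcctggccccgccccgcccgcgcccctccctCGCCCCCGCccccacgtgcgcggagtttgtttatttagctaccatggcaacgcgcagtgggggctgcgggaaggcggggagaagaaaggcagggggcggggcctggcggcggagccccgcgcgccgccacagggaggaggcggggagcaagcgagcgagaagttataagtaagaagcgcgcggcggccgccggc
Npas4: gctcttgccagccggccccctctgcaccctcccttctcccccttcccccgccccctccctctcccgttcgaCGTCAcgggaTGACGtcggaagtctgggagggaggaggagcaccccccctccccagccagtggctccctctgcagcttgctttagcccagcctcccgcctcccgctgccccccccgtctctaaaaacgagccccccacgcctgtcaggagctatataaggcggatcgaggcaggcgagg
Nr4a2: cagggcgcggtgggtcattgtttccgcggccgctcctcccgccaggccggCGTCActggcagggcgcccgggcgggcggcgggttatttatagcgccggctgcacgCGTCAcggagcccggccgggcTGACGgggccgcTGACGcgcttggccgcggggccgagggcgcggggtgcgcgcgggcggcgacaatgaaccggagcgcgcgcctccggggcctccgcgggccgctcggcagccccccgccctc
The short CRE was found in all 4 windows, and in 15 of the 24 matched genes, some of which have several annotated starts. It was found in 17.8% of all 32851 promoter windows of this length. The 24 genes had 34 windows, and a gene was counted if any of its windows matched. Counts of genes and shares of windows are therefore not in the same unit, here and for the motifs below. The EGR motif was found in 5 matched genes (Fosb, Fosl2, Klf2, Klf4 and Nr4a1) and in 3.06% of all windows. The TATA motif was found in 4 (Fos, Gadd45b, Gadd45g and Inhba) and in 7.59% of all windows. The full CRE (TGACGTCA, 1.55% of windows) was found in Btg2 and Dusp1, the CArG box bound by SRF (1.47%) in Egr2 and Dusp5, and the AP-1 motif (TGANTCA, 6.75%) in Bdnf. These letters are matches in a short window and say nothing of binding.

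Within each library, the neuron-restricted and the general genes were set side by side as the mean log2 CPM of each list, as a description with no test. The neuron-restricted mean exceeded the general mean by 1.48, 1.76, 1.32, 1.45 and 1.29 in WT 1 to 5. In TfamAKO 1 to 5 the difference was 0.69, -0.36, -0.11, -0.02 and 0.02. All 5 TfamAKO libraries lay below all WT libraries, and TfamAKO 1 lay between the WT libraries and the other TfamAKO libraries. On average the neuron-restricted list was lower by 0.87 and the general list higher by 0.54 on the log2 scale. The ratio of Arc to Fos, which depends on gene length and is compared only between libraries, was 7.94, 7.64, 12.6, 9.74 and 9.24 in WT 1 to 5. It was 3.81, 0.540, 1.10, 0.553 and 3.09 in TfamAKO 1 to 5. WT 3, low for both Arc and Fos, had the highest ratio, and WT 1, also low for both, lay near the lowest of WT. All TfamAKO ratios were below all WT ratios. The ratio of Nr4a2 to its paralog Nr4a1 was 0.968 to 1.44 in the WT libraries and 0.317 to 0.826 in the TfamAKO libraries. These pairs were chosen after their values were seen.

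Pan-neuronal markers were also lower in TfamAKO. Of 6 markers, 4 fell, beside 16.6% of all genes tested, among them Snap25 (log2 fold change -0.41 ± 0.07) and Syt1 (-0.27 ± 0.06). The summed level was 4779 to 5314 CPM in WT and 3692 to 4310 CPM in TfamAKO. The mean log2 CPM of these markers was lower by 0.30, and that of the neuron-restricted genes by 0.87. Relative to the pan-neuronal mean, the neuron-restricted mean stood at -4.06 to -3.37 in WT and at -4.40 to -3.95 in TfamAKO, so the groups overlapped by this measure. Dentate granule cell markers fell in 2 of 5 cases, with Calb1 at a log2 fold change of -1.22 ± 0.12, and 5 of 6 interneuron markers fell. How much of the lower Arc, Npas4 and Nr4a2 went with these markers was not tested.

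**Figure D3:**
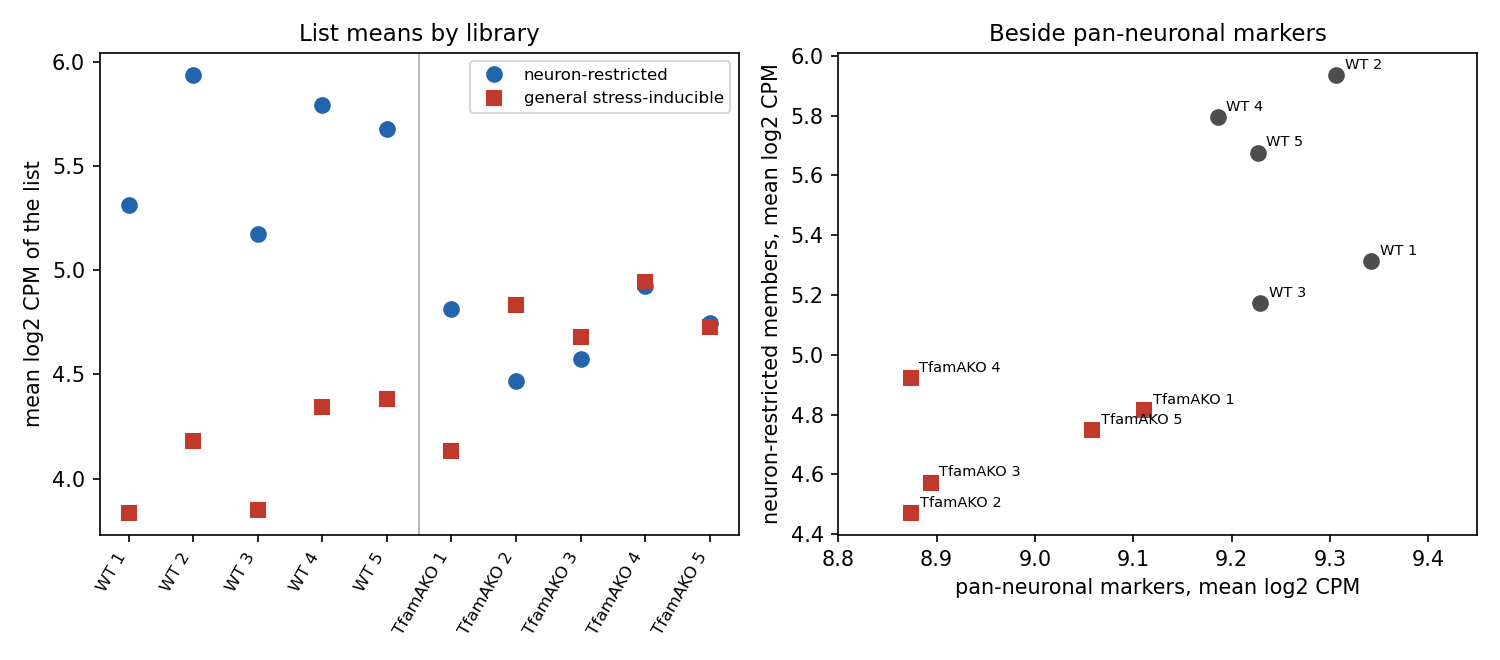
Left, mean log2 CPM (y axis) of the 4 neuron-restricted genes (circles) and the 7 general genes (squares) in each library (x axis). Right, the neuron-restricted mean (y axis) against the mean log2 CPM of 6 pan-neuronal markers (x axis) in WT (circles) and TfamAKO (squares). The 2 lists were apart by 1.29 to 1.76 in WT and lay within 0.36 of each other in TfamAKO 2 to 5.

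Of the 6 AP-1 subunits on the list, whose Fos and Jun proteins bind DNA as dimers, Fos alone rose, beside 20.8% of all genes tested. The other 5 did not pass. All 6 had positive log2 fold changes, beside 7749 of the 16180 genes tested. Jun was at 124 to 156 CPM in WT and 93.1 to 208 CPM in TfamAKO (log2 fold change 0.21 ± 0.17), with TfamAKO 5 lowest, and it passed without TfamAKO 5 (0.36, edgeR adjusted p = 0.0133). Fosb was at 11.6 to 13.1 CPM in WT, a narrow range. It was at 7.59 CPM in TfamAKO 1, below all WT libraries, and at 14.9 to 18.0 CPM in the other TfamAKO libraries, above all of them. Its log2 fold change was 0.22 ± 0.19 (edgeR adjusted p = 0.375), and without TfamAKO 1 it passed (0.38, 0.00438). Fosl2 (0.22 ± 0.19) and Jund (0.22 ± 0.11) did not pass. Jund passed without WT 2 (0.30, edgeR adjusted p = 0.0389) or TfamAKO 1 (0.28, 0.0342).

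Of the 4 EGR factors, which act at genes of synaptic plasticity, 1 fell, beside 16.6% of all genes tested, and the other 3 did not pass. Egr4 was at 36.7, 36.9, 27.3, 41.2 and 41.9 CPM across WT 1 to 5 and 20.02, 22.3, 25.1, 35.4 and 24.2 CPM across TfamAKO 1 to 5. WT 3 and TfamAKO 4 gave the overlap between otherwise separate groups. Egr4 fell 1.45-fold (log2 fold change -0.53 ± 0.15, edgeR adjusted p = 0.0172), and did not pass without WT 3, 4 and 5 (-0.51, edgeR adjusted p = 0.101). Egr1, also called Zif268 and needed for lasting memory, was at 106, 101, 71.6, 117 and 117 CPM across WT 1 to 5 and 53.6, 62.5, 58.8, 98.3 and 104 CPM across TfamAKO 1 to 5. TfamAKO 1, 2 and 3 were below all WT libraries, while TfamAKO 4 and 5, the libraries with Y-linked transcripts, were within the WT range. Egr1 did not pass (log2 fold change -0.44 ± 0.20, edgeR adjusted p = 0.0989). It passed without TfamAKO 4 and 5 (-0.81, edgeR adjusted p = 0.00291), without TfamAKO 5 alone (-0.58, 0.0281) and without WT 3 (-0.55, 0.0472). Egr2 was near the detection limit at 0.573 to 2.33 CPM over all libraries, with as few as 12 counts (log2 fold change -0.66 ± 0.35).

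In the NR4A family of 3 ligand-independent nuclear receptors, only Nr4a2 passed, beside 37.4% of all genes tested in either direction. Nr4a1 was at 47.0 to 73.8 CPM in WT, at 39.7 CPM in TfamAKO 1 and at 57.1 to 96.4 CPM in the other TfamAKO libraries (log2 fold change 0.30 ± 0.21). It passed without TfamAKO 1 (0.45, edgeR adjusted p = 0.0430). Nr4a3 was at 48.6 to 73.9 CPM in WT and 34.9 to 73.1 CPM in TfamAKO, with a log2 fold change of -0.20 ± 0.17.

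Secreted and synaptic effectors divided. Vgf, a neuronal granin-like precursor of secreted peptides, was at 315, 304, 268, 303 and 318 CPM across WT 1 to 5 and 285, 238, 250.1, 190 and 221 CPM across TfamAKO 1 to 5. TfamAKO 1 alone overlapped WT. Vgf fell 1.27-fold (log2 fold change -0.35 ± 0.10, edgeR adjusted p = 0.0137). The fall did not pass without TfamAKO 4 and 5 (-0.22, edgeR adjusted p = 0.0511) or without WT 3, 4 and 5 (-0.36, 0.104). Nptx2, a pentraxin that clusters AMPA receptors on interneurons, was at 45.2, 35.1, 31.5, 34.2 and 38.5 CPM across WT 1 to 5 and 63.8, 40.9, 40.5, 50.4 and 54.5 CPM across TfamAKO 1 to 5. It rose 1.36-fold (log2 fold change 0.44 ± 0.13, edgeR adjusted p = 0.0220). WT 1 lay among the TfamAKO libraries, and the rise did not pass without WT 3 (0.39, edgeR adjusted p = 0.0561), WT 4 (0.41, 0.0524), TfamAKO 4 and 5 (0.40, 0.0903) or WT 3, 4 and 5 (0.35, 0.246).

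Bdnf (brain-derived neurotrophic factor), Ptgs2 (cyclooxygenase 2) and Inhba (activin A) did not pass, and in each TfamAKO 1 was the highest library. Bdnf was at 71.6 CPM in TfamAKO 1 and at 32.6 to 45.7 CPM in the other TfamAKO libraries, against 37.4 to 54.9 CPM in WT. Ptgs2 was at 39.5 CPM in TfamAKO 1 and at 16.5 to 25.3 CPM in the other 9 libraries. Inhba was at 14.7 CPM in TfamAKO 1 and at 5.01 to 11.5 CPM in the other 9. The log2 fold changes were 0.10 ± 0.18 for Bdnf, 0.11 ± 0.20 for Ptgs2 and -0.14 ± 0.28 for Inhba. Counts per gene do not separate the transcripts that start at the several promoters of Bdnf.

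All 7 genes of growth arrest and feedback had positive log2 fold changes, beside 7749 of the 16180 genes tested. Of the 7, 4 rose, beside 20.8% of all genes tested. Trib1, a pseudokinase that directs C/EBP factors to degradation, was at 13.9, 16.5, 14.3, 15.4 and 16.6 CPM across WT 1 to 5 and 20.2, 55.5, 47.7, 62.9 and 30.1 CPM across TfamAKO 1 to 5. WT was tight, TfamAKO was spread 3.11-fold, and every TfamAKO library was above every WT library. Trib1 rose 2.82-fold (log2 fold change 1.49 ± 0.25, edgeR adjusted p = 0.000855), and it passed under all 22 alternatives (1.32 to 1.67). Ier5, a regulator of heat shock factor 1, was at 53.9 to 70.1 CPM in WT and 78.1 to 104 CPM in TfamAKO, with no overlap. It rose 1.43-fold (log2 fold change 0.52 ± 0.09, edgeR adjusted p = 0.00128) and passed under all 22 alternatives (0.40 to 0.58). Ier2 was at 5.23, 10.6, 4.47, 6.39 and 6.83 CPM across WT 1 to 5 and 8.64, 11.9, 12.1, 13.1 and 10.3 CPM across TfamAKO 1 to 5. WT 2 was within the TfamAKO range. Ier2 rose 1.67-fold (log2 fold change 0.74 ± 0.21, edgeR adjusted p = 0.0164), and did not pass without TfamAKO 4 and 5 (0.69, edgeR adjusted p = 0.0609) or without WT 3, 4 and 5 (0.51, 0.226).

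Btg2, an antiproliferative factor, and Sik1, a kinase that restrains CREB coactivators, were spread over both groups. Btg2 was at 14.3 to 24.4 CPM in WT, at 16.98 and 15.1 CPM in TfamAKO 1 and 5, and at 32.5 to 38.4 CPM in TfamAKO 2, 3 and 4 (log2 fold change 0.58 ± 0.26, edgeR adjusted p = 0.0934). Sik1 was at 10.9 to 22.3 CPM in WT, at 13.9 and 15.2 CPM in TfamAKO 1 and 5 and at 27.7 to 36.4 CPM in TfamAKO 2, 3 and 4 (0.61 ± 0.29, edgeR adjusted p = 0.123). Both passed without TfamAKO 1 (Btg2 0.71, edgeR adjusted p = 0.0350, Sik1 0.76, 0.0409), and Btg2 without TfamAKO 5 (0.74, 0.0218).

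None of the 4 MAP kinase phosphatases passed the edgeR, DESeq2 or limma-voom test. With edgeR, 37.4% of all genes tested passed in either direction. At an unadjusted p under 0.05, Dusp1 alone would pass. Dusp1, which inactivates p38, JNK and ERK in the nucleus, was at 15.1, 31.5, 15.1, 23.5 and 23.7 CPM across WT 1 to 5 and 15.9, 45.9, 33.8, 75.5 and 20.8 CPM across TfamAKO 1 to 5. TfamAKO 2, 3 and 4 exceeded all WT libraries, and TfamAKO 1 and 5 did not (log2 fold change 0.81 ± 0.37, 95% interval 0.00 to 1.62, edgeR adjusted p = 0.105). It passed without TfamAKO 1 (1.01, edgeR adjusted p = 0.0293). Dusp6, the cytoplasmic ERK phosphatase, varied little, at 41.2 to 53.7 CPM in WT and 44.6 to 52.1 CPM in TfamAKO. Its log2 fold change was 0.01 with a 95% interval of -0.16 to 0.18. Dusp4 (-0.19 ± 0.16) and Dusp5 (-0.12 ± 0.17) also did not pass.

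Libraries of 1 genotype differed from each other in many of these genes at once. In WT, the median deviation of the 34 genes from the group mean was -0.11 and -0.17 in WT 1 and 3 and 0.12 and 0.13 in WT 4 and 5 (log2 CPM). Scaling and subtraction of the group mean hold the median of all genes near 0 (within 0.01 in each WT library). That median therefore does not show how far other sets of genes deviated, which was not computed. In TfamAKO, TfamAKO 4 deviated by 0.27, and 16 of the 34 genes were highest there, among them Fos, Junb, Dusp1, Btg2, Sik1 and Trib1. TfamAKO 1 deviated by -0.19. It was the lowest TfamAKO library for 16 genes, Fos, Klf4, Gadd45b, Ier2 and Trib1 included, and the highest for 8 (Dusp4, Dusp6, Gadd45g, Bdnf, Nptx2, Vgf, Ptgs2 and Inhba). How often these libraries were highest or lowest over all genes was not counted. Without TfamAKO 1, 7094 genes passed in the whole table in place of 6048, so its difference was not confined to the list. Of the 7 genes that rose, 4 had TfamAKO 1 within the WT range. In TfamAKO 5, which held the neocortical genes and the lowest sum of dentate granule cell markers (137 CPM, against 263 to 403 CPM in the other 9 libraries), Arc, Egr1 and Egr3 were the highest of the group and Nr4a2, Nr4a3, Bdnf and Jun the lowest. The part of these differences in the result of the groups was not tested beyond the values without each library.

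**Figure D4:**
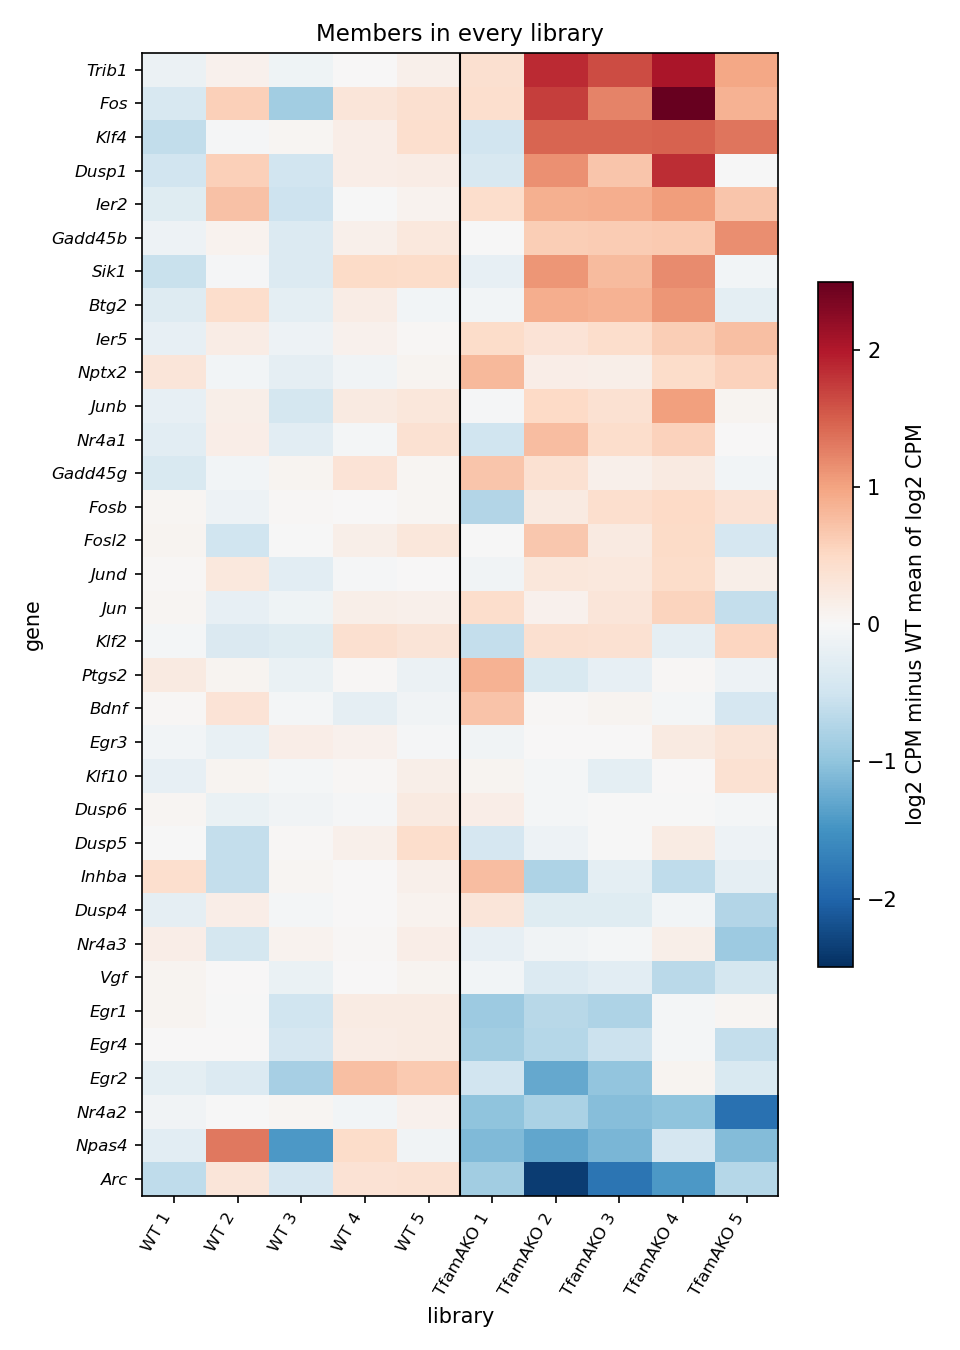
Log2 CPM of each of the 34 genes (rows, ordered by log2 fold change) in each library (columns), minus the WT mean of log2 CPM, red above and blue below. TfamAKO 1 was pale for genes that were red in TfamAKO 2, 3 and 4, such as Klf4 and Dusp1, and Arc was bluest in TfamAKO 2 and 3.

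Related genes outside the list were taken from fixed lists. Of 24 other rapid response genes of stress and growth factor signalling, 20 rose, beside 20.8% of all genes tested. The other 4 had positive values that did not pass. The median log2 fold change of the 24 was 1.03, beside -0.02 for all genes. The smallest p-values were those of Gadd45a, a growth arrest gene (5.81 ± 0.983 CPM in WT and 57.1 ± 12.8 CPM in TfamAKO, SD, n = 5 each; log2 fold change 3.29 ± 0.17, edgeR adjusted p = 1.61e-07), and Socs3, the feedback inhibitor of STAT3 (4.13 ± 0.38, edgeR adjusted p = 1.08e-05). Atf3 (3.33 ± 0.33) and Cebpb (0.96 ± 0.10), stress-induced bZIP factors, followed. The largest change was that of Fosl1, named after its value was seen, an AP-1 subunit at 0 to 0.246 CPM in WT and at 0.449 to 5.10 CPM in TfamAKO. For each of these 5 genes TfamAKO 1 was the lowest TfamAKO library, as for Fos, Klf4 and Trib1, and it still lay above every WT library. For Fosl1 this rests on values near the detection limit (0.449 CPM in TfamAKO 1 and 0.246 CPM in WT 1).

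Of 17 other genes that activity induces in neurons, 8 fell and 1 rose, beside 16.6% and 20.8% of all genes tested. The median log2 fold change was -0.40, beside -0.02 for all genes. Homer1, a postsynaptic scaffold whose short form is activity-induced, was at 106 ± 11.4 CPM in WT and 66.9 ± 9.43 CPM in TfamAKO (SD, n = 5 each; log2 fold change -0.66 ± 0.10, edgeR adjusted p = 0.000470). Gene counts do not separate its short and long forms. Cort, a neuropeptide of interneurons (-2.22 ± 0.38), Syt4, a vesicle protein (-0.42 ± 0.08), and Pcsk1, a prohormone convertase (-0.73 ± 0.19), also fell. The gene that rose was Penk, the enkephalin precursor (0.78 ± 0.24), and Penk in TfamAKO 5 was at 21.98 CPM, below all WT libraries.

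Few kinases and factors upstream of the list passed the test. Of 14, 2 rose and 1 fell, beside 20.8% and 16.6% of all genes tested, with log2 fold changes between -0.42 and 0.29. Elk1, the partner of SRF, fell (-0.42 ± 0.09, edgeR adjusted p = 0.00321), and Mapk3, which encodes ERK1, rose (0.29 ± 0.07, edgeR adjusted p = 0.00772), as did the corepressor Ncor1 (0.15 ± 0.05). Srf did not pass (-0.20 ± 0.08, edgeR adjusted p = 0.0620). Of 11 feedback genes and ETS targets of ERK signalling, 3 rose and 1 fell. That share was close to the 37.4% of all genes tested that passed in either direction. Ccnd1 (cyclin D1, 1.69 ± 0.13), Spry2 (0.61 ± 0.14) and Etv5 (0.23 ± 0.06) were higher and Etv1 (-0.42 ± 0.13) was lower.

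**Figure D5:**
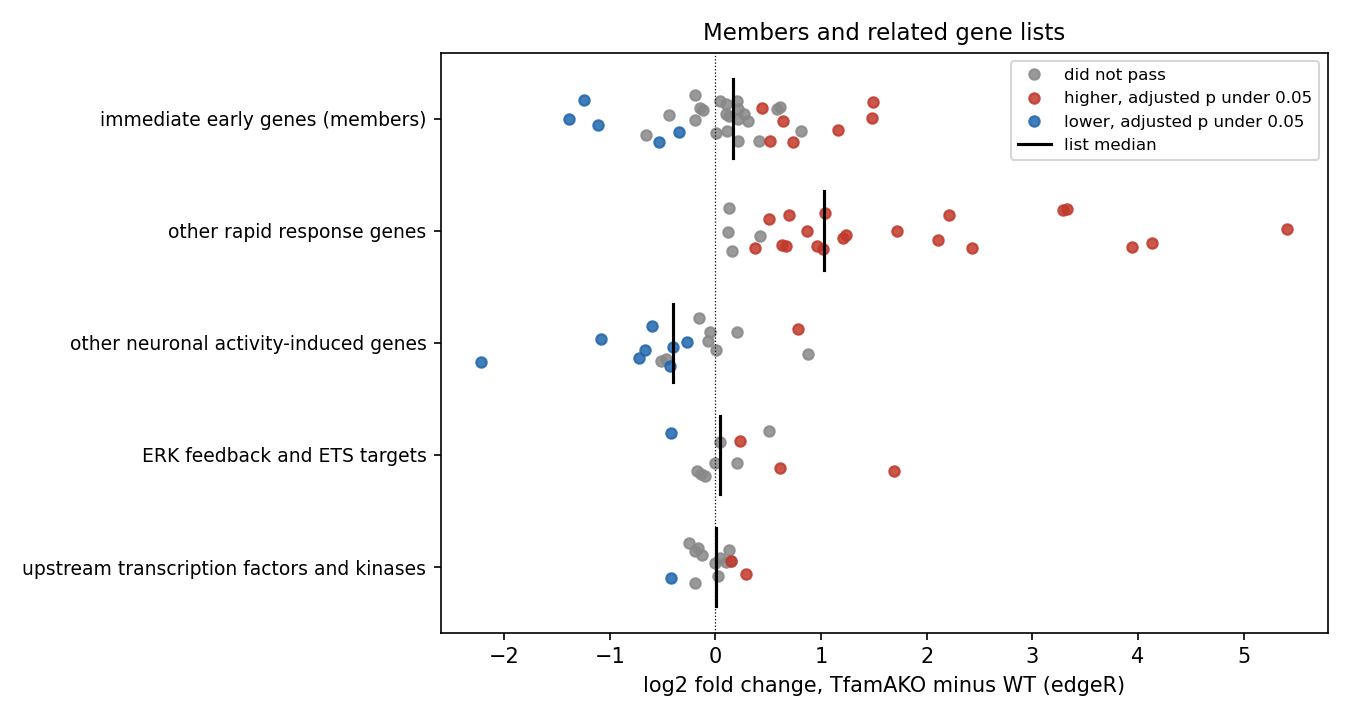
Log2 fold change, TfamAKO minus WT (x axis), of the 34 genes and of 4 related lists (y axis), 1 point per gene, with the list median as a bar and points spread vertically for legibility. The other rapid response genes had a median of 1.03 and the other neuronal activity-induced genes a median of -0.40.

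Most markers of astrocytes, microglia and vessels were higher in TfamAKO, and those of oligodendrocytes mostly did not pass the test. Of astrocyte markers 4 of 6 rose, beside 20.8% of all genes tested. Their summed levels were 1128 to 1628 CPM in WT and 2637 to 4394 CPM in TfamAKO. Of microglia markers 5 of 6 rose, with 269 to 321 CPM in WT and 457 to 538 CPM in TfamAKO, and 3 of 5 mural cell markers rose. Of oligodendrocyte markers 1 of 5 rose, with 4686 to 8221 CPM in WT and 5080 to 7006 CPM in TfamAKO. Of oligodendrocyte precursor markers 0 of 3 rose, with 110 to 163 CPM in WT and 129 to 162 CPM in TfamAKO. No marker of these lists was at 0 in all libraries. TfamAKO 1, at the WT level for Fos and Klf4, had the highest astrocyte sum (4394 CPM) and the lowest endothelial sum of TfamAKO (232 CPM). Which cells carried Fos, Klf4, Trib1 or the other transcripts was not measured in whole tissue, and the part of cell numbers in these changes was not tested.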

How the data were processed

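RNA of hippocampus from 10 mice (5 WT, 5 TfamAKO) was isolated with a column kit and made into stranded mRNA libraries, per the labels' protocols. The authors deposited a table of unnormalized estimated counts (whole numbers, so rounding changed none) and a table of normalized values, treated here as a signal; per the submitters' processing notes, Salmon (no version) and DESeq2 1.26.0 were used. Build, annotation and the signal's normalization method: not given in the sources used here. Total counts were 16584245 to 28675367 per library; no molecular identifiers are stated.

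Genes were filtered with filterByExpr (minimum count 10), which kept 16180 of 20156. Counts were scaled by TMM and compared with the two-sided quasi-likelihood test of edgeR 4.0.16 in R 4.3.3, with genotype as the only term and Benjamini-Hochberg adjustment over all genes (threshold 0.05). The SE is the absolute log2 fold change over the square root of F. List means used log2 CPM with a prior count of 2. Alternatives were other scalings and filters, DESeq2 1.42.0, limma 3.58.1 (voom, and log2 of the deposited signal plus 0.5, 1 or 5), a replicate block and leaving out libraries. On simulated counts for this comparison (16044 genes), the test recovered 7 of 50 genes at a 1.25-fold change, 30 of 50 at 1.5-fold, 45 of 50 at 2-fold and 50 of 50 at 4-fold. The simulated counts took the spread between libraries from a trend over all genes, not from each gene. Only 50 genes were changed at each fold, while 6048 genes passed in the data. The recovered numbers therefore do not give the power for the 34 genes. Label numbers were not treated as pairs of mice. The 34 genes and all lists were chosen with earlier results of these data known. Per-library values were given for the 11 contrasted genes, the 5 largest rises and 5 largest falls among genes that passed, and Tfam. Outside that rule they were also given for Egr1, Dusp1 and Nptx2. Up to 4 genes with the smallest p were named per related list. Other named genes were chosen after their values were seen. Date-like names stand in place of symbols for 24 genes, which were not repaired.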

Additional observations from a re-analysis of the deposited data

Results flagged for a closer look

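In 9 of 70 sets of 5 libraries (35 genes in 2 groups), 1 library lay far from the others relative to the range of its group, and chance gives about 1 in 20. TfamAKO 1 was the outlying library for 4 genes: it was low for Klf4 (5.54 CPM) and high for Dusp6 (52.1 CPM), Ptgs2 (39.5 CPM) and Inhba (14.7 CPM). TfamAKO 4 was high for Npas4 (5.98 CPM). WT 2 was low for Fosb (11.6 CPM) and Nr4a3 (48.6 CPM). Tfam, the targeted gene, was low in WT 3 (20.6 CPM) and, within its group, in TfamAKO 3 (19.6 CPM).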

How the results depend on the processing

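Over 22 alternatives, Nr4a2, Trib1 and Ier5 kept direction and call. Other scalings, filters and tests changed the call of Npas4 alone among the 34 genes (limma-voom and the authors' normalized values). Leaving out libraries moved more. With WT 1 and 2 as the only WT libraries (without WT 3, 4 and 5), 2752 genes passed in place of 6048 (72.7% of them higher in place of 55.7%). Of the list, 2 genes then rose and 2 fell. Without TfamAKO 4 and 5, 4 genes of the list rose. Leaving out 1 library each gave 4828 to 7094 genes passing, 6 to 13 of the list higher and 4 to 6 lower. Tfam did not pass in the authors' normalized values (-0.28 with each pseudocount) or without TfamAKO 4 and 5 (-0.43), and ran from -0.51 to -0.34 with 1 library left out. Among genes that did not pass, signs turned for Egr3 (-0.024), Klf10 (-0.071) and Inhba (0.037) without TfamAKO 4 and 5, for Dusp5 (0.22), Bdnf (-0.057) and Ptgs2 (-0.010) without WT 3, 4 and 5, and for Dusp6 with upper-quartile scaling (-0.022) or a stricter filter (-0.0023). With 1 library left out the ranges were -0.035 to 0.055 for Dusp6, -0.055 to 0.11 for Klf10, -0.10 to 0.21 for Bdnf and -0.16 to 0.21 for Ptgs2. The cause was not tested. Same-numbered libraries correlated at -0.142 to 0.0691 in their deviations from the group means. Weak correlation between single libraries cannot show whether the numbers pair mice by litter or day, so no pairing was assumed. With the replicate block 5679 genes passed, 7 of the list higher and 6 lower, with Egr1 (-0.47, edgeR adjusted p = 0.0176) added. Egr2, with 12 to 59 counts, was left out by the stricter filter.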
